A study of Homo sapiens with 6 samples.

Results

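Serpin and plasminogen activator transcripts were compared between NRP2-high and NRP2-low PC3 cells. The members were all protein-coding genes of the deposited table whose symbol is SERPIN followed by a clade letter from A to I and a number, together with PLAU and PLAT. This rule took 20 of the 27958 genes in the table and used no measured value, and 19 of them, 17 serpins and 2 plasminogen activators, are described. PC3 is a human prostate cancer line that was derived from a bone metastasis and grows without androgen. NRP2 encodes neuropilin-2, a membrane protein that binds vascular endothelial growth factors and class 3 semaphorins together with their signalling receptors. All cells came from this 1 line and carried no transgene or drug treatment in the labels. Both groups were stained with an NRP2 antibody, sorted by flow cytometry and then cultured for up to 2 weeks, with RNA taken at different passages. The NRP2-high group held libraries S38, S39 and S40, and the NRP2-low group held S35, S36 and S37.

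Plasminogen activators are serine proteases that cut plasminogen to plasmin, which degrades fibrin and, directly or through other proteases, extracellular matrix. PLAU encodes urokinase, which acts at the cell surface while bound to its receptor, the product of PLAUR, and PLAT encodes tissue plasminogen activator. Most serpins inhibit serine proteases by offering an exposed loop as a substrate and trapping the protease after it cuts, but some members carry hormones or act as chaperones. Urokinase has long been studied in prostate cancer cells for its part in matrix degradation and invasion.

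The libraries held 17551302 to 30726744 reads, obtained from TPM (a transcript level per gene length, scaled to the same total in every library) and gene length. Mitochondrially encoded genes took 31.0% of the TPM of S37 and 11.1% to 18.7% in the other libraries. For NRP2 itself S38, S39 and S40 had 48.1, 42.5 and 16.6 TPM, against 7.55, 5.10 and 2.71 TPM in S35, S36 and S37, so the groups did not overlap for the sorted gene. VIM, KRT8, KRT18 and CD44 were expressed, and EPCAM, an epithelial surface gene, reached 0.0242 ± 0.0419 TPM in the high group against 0 TPM in the low group. CTNNA1, which carries a homozygous deletion in PC3 cells, had 249 ± 45.0 TPM in NRP2-high cells and 187 ± 68.1 TPM in NRP2-low cells (SD, n = 3 each). The expression of CTNNA1 and the near absence of EPCAM go against the label PC3, and the cells are called PC3 only as the labels do. A value per gene does not show where in the gene its reads lie, so reads from a retained part of a deleted gene cannot be told apart from an intact gene. In bulk RNA, fewer cells that express a gene and less of its RNA per cell cannot be told apart.

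Of the 19 members described, 8 passed the filter on low values (3 or more of the 6 libraries with a TPM of 1 or more) and were tested, and 11 did not. SERPINI1, which encodes neuroserpin, an inhibitor of tissue plasminogen activator known best from neurons, rose in NRP2-high cells. SERPINA6, which encodes corticosteroid-binding globulin, the cortisol carrier of blood plasma made mainly in the liver, fell to 1 read over the 3 NRP2-high libraries. The other 6 tested members, PLAU, PLAT, SERPINE2, SERPINB6, SERPINB8 and SERPINA1, did not pass the threshold of an adjusted p of 0.05 (limma with Benjamini-Hochberg adjustment over all 15214 genes tested). In the same test 0.348% of all genes were called higher and 0.486% lower, 0.835% together. SERPINA6 reached the filter through its NRP2-low libraries alone, so it had to differ, and the share of members called is given as a description.

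**Figure D1:**
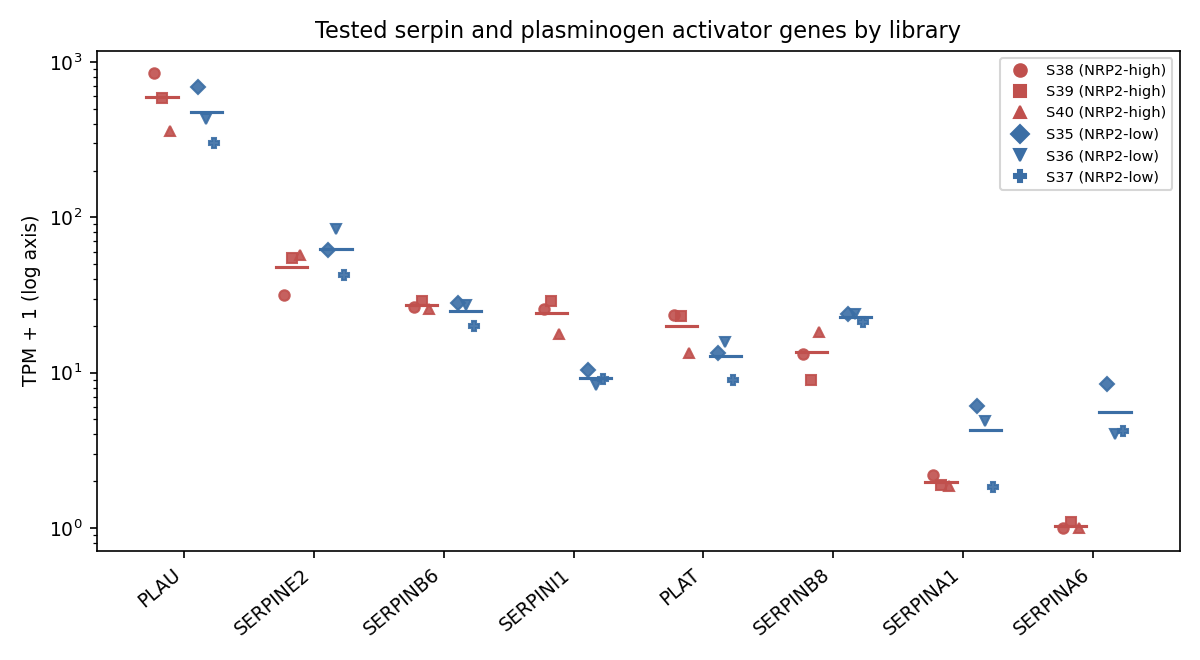
TPM + 1 on a log axis for the 8 tested members, with 1 point per library, NRP2-high in red and NRP2-low in blue, and a bar at each group mean. The red and blue points do not overlap for SERPINI1, SERPINB8 and SERPINA6, as for 12.0% of all genes tested. For SERPINA6 this followed from the filter. PLAU lies far above every other member in all 6 libraries.

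Sequences before the start sites are shown for SERPINI1, SERPINA6 and SERPINB8, the tested members whose groups did not overlap. They are given so that the letters near each start can be read beside the values. Of all genes tested 12.0% had groups that did not overlap, and for SERPINA6 this followed from the filter. RefSeq windows on GRCh38.p14 were matched for 16 of the 19 members, and the 250 bases before each start were searched on both strands. In the SERPINI1 window CAGCTG, an E-box form bound by basic helix-loop-helix factors, occurs 4 times. Of 35116 windows of all genes, 13.99% hold this motif at least once and 0.01709% at least 4 times. Among the other members, a window of SERPINE2 holds it 2 times, and a window each of SERPINA5 and SERPIND1 holds it 1 time. The SERPINI1 window lies within the first exon of a longer annotated SERPINI1 transcript, so only 30 bases around 2 of its matches are given. They lie at chr3:167735535-167735564 and chr3:167735601-167735630 on the plus strand, with the motif in capitals.
SERPINI1 first site: gaagtggcagagCAGCTGcagaagtgcagg
SERPINI1 second site: ctccggtccgggCAGCTGcagaaacagcag

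The SERPINB8 window holds TGANTCA, the motif of AP-1 factors, 2 times. Of all windows 0.4015% hold it at least 2 times and 6.573% at least once. Among the other members, 2 windows of SERPINB7 also hold it 2 times each, and a window each of SERPINB2, SERPINB5, SERPINE3 and SERPINI2 holds it 1 time, and all of these genes were below the filter. The sites lie at chr18:63969885-63969914 and chr18:63970042-63970071 on the plus strand, with the motif in capitals. The second is within 50 bases of the RefSeq start. SERPINB8 as counted begins at 63969925, so this second site lies inside the counted gene.
SERPINB8 first site: ggagtcaaacgTGAATCAacggtgaaaaaa
SERPINB8 second site: tcgaacggttcTGAGTCAtctgccggaagc

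For SERPINA6, the 192 bases upstream of every annotated exon of the gene are given (chr14:94323395-94323586, minus strand). The capitals mark GTTAAT, one arm of the site of the liver factor HNF1, which the 250 bases hold 3 times, 2 of them in the part shown. Of all windows 6.231% hold this motif at least once and 0.4215% at least 2 times. Among the other members, a window each of SERPINA1 and SERPINI2 holds it 1 time. The SERPINI1, SERPINB8 and SERPINA6 windows do not hold the NF-kB motif, which 5.206% of all windows do. The motifs were chosen after the sequences were seen, and a match is a description of the letters, not evidence of binding.
SERPINA6: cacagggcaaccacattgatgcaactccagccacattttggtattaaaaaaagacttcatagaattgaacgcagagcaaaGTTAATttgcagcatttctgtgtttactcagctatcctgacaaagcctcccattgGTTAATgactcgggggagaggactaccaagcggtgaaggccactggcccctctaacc

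PLAU was the most abundant member in every library. PLAU (chromosome 10, 73909177 to 73917496, plus strand, GRCh38) had 842, 583 and 360 TPM in S38, S39 and S40, against 688, 431 and 301 TPM in S35, S36 and S37. The ranges of the groups overlapped in part, with S38 above every NRP2-low library and S37 below every NRP2-high library. Within each group the highest library stood above the lowest by 2.34-fold in NRP2-high and 2.29-fold in NRP2-low cells. The means were 595 ± 241 against 473 ± 197 TPM (SD, n = 3 each), a log2 fold change of 0.33 ± 0.36 (SE) with a 95% interval from -0.50 to 1.16 (limma adjusted p = 0.899). By its mean over the 6 libraries PLAU ranked 193 among the 11068 protein-coding genes tested, and it made up 72.6% to 87.7% of the summed TPM of the 19 members described. The value rests on 57784 reads, so the interval reflects the spread between libraries and not counting error. PLAU overlaps C10orf55 on the opposite strand, which was at 2.07 to 5.53 TPM, and whether the counting used strand is not given in the sources used here.

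PLAT was lower than PLAU by more than an order of magnitude. PLAT (chromosome 8, 42175233 to 42207565, minus strand) had 22.6, 22.1 and 12.4 TPM in S38, S39 and S40, against 12.4, 14.9 and 7.99 TPM in S35, S36 and S37. S38 and S39 lay above all NRP2-low libraries, whereas S40 lay within their range. The means were 19.0 ± 5.73 against 11.8 ± 3.48 TPM (SD, n = 3 each), a log2 fold change of 0.64 ± 0.29 (SE) with a 95% interval from -0.02 to 1.31 (limma adjusted p = 0.733). The log2 fold change was 0.41 without S37 and 0.91 without S40. The ratio of PLAU to PLAT was 37.2, 26.4 and 29.0 in S38, S39 and S40 and 55.4, 29.0 and 37.7 in S35, S36 and S37, with overlapping groups.

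Among inhibitors of plasminogen activators and of plasmin, 2 of the 5 members described were tested. SERPINI1 (chromosome 3, 167735243 to 167825568, plus strand) had 24.7, 27.8 and 16.6 TPM in S38, S39 and S40, against 9.36, 7.30 and 8.08 TPM in S35, S36 and S37. Every NRP2-high library lay above every NRP2-low library, which held for 8.83% of all genes tested. The means were 23.0 ± 5.79 against 8.25 ± 1.04 TPM (SD, n = 3 each), 2.79-fold higher in NRP2-high cells. The log2 fold change was 1.35 ± 0.23 (SE) with a 95% interval from 0.84 to 1.87 (limma adjusted p = 0.0363). The call stayed without S40 (adjusted p = 0.0247) and ended without S38 (0.150), S39 (0.192), S35 (0.0742), S36 (0.173) or S37 (0.111), and these limma fits gave log2 fold changes from 1.21 to 1.56. It also ended without a filter (adjusted p = 0.122) and when libraries were scaled by their median log ratio (1.24, adjusted p = 0.0531), and it held with TPM rescaled after removal of mitochondrially encoded genes (1.29, adjusted p = 0.0369).

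The groups overlapped for the gene next to SERPINI1. PDCD10, named here for its position and after its values were seen, is read in the opposite direction and begins 304 bases from SERPINI1 in the table. It had 184, 194 and 158 TPM in S38, S39 and S40, against 168, 176 and 197 TPM in S35, S36 and S37. Its log2 fold change was -0.01 (95% interval -0.37 to 0.34, limma adjusted p = 0.992), an interval that lies below that of SERPINI1. The difference between the neighbours was not tested. The ratio of PLAT to SERPINI1, an activator to an inhibitor of it, was 0.917, 0.792 and 0.747 in S38, S39 and S40 and 1.33, 2.04 and 0.989 in S35, S36 and S37, so it was lower in each NRP2-high library, a pattern that includes the rise of SERPINI1 itself.

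SERPINE2, protease nexin 1, inhibits thrombin, urokinase and plasmin at cell surfaces and in the matrix. SERPINE2 (chromosome 2, 223975112 to 224039288, minus strand) had 30.7, 53.7 and 56.0 TPM in S38, S39 and S40, against 60.8, 83.5 and 41.2 TPM in S35, S36 and S37. S38 was lowest and S36 highest, and S39 and S40 lay between the NRP2-low libraries. The means were 46.8 ± 14.0 against 61.9 ± 21.2 TPM (SD, n = 3 each), a log2 fold change of -0.39 ± 0.31 (SE) with a 95% interval from -1.09 to 0.31 (limma adjusted p = 0.892), -0.11 without S38 and -0.65 without S37. The ratio of PLAU to SERPINE2 was 27.5 in S38 and 5.16 to 11.3 in the other 5 libraries.

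SERPINF2, SERPINB2 and SERPINA5, of the same role, were at a few reads. SERPINF2, the plasmin inhibitor alpha-2-antiplasmin, had 9 reads in NRP2-high cells and 1 read in NRP2-low cells (0.0779, 0.233 and 0.346 TPM in S38, S39 and S40 against 0, 0.0730 and 0 TPM in S35, S36 and S37). It was below the filter, and in the fit without a filter its unadjusted p was 0.0380 and its limma adjusted p = 0.736. SERPINB2, plasminogen activator inhibitor 2, had 3 reads in NRP2-high cells and 0 reads in NRP2-low cells, and SERPINA5, the protein C inhibitor, had 4 reads and 1 read. No difference was detectable at this depth for SERPINF2, SERPINB2 or SERPINA5.

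**Figure D2:**
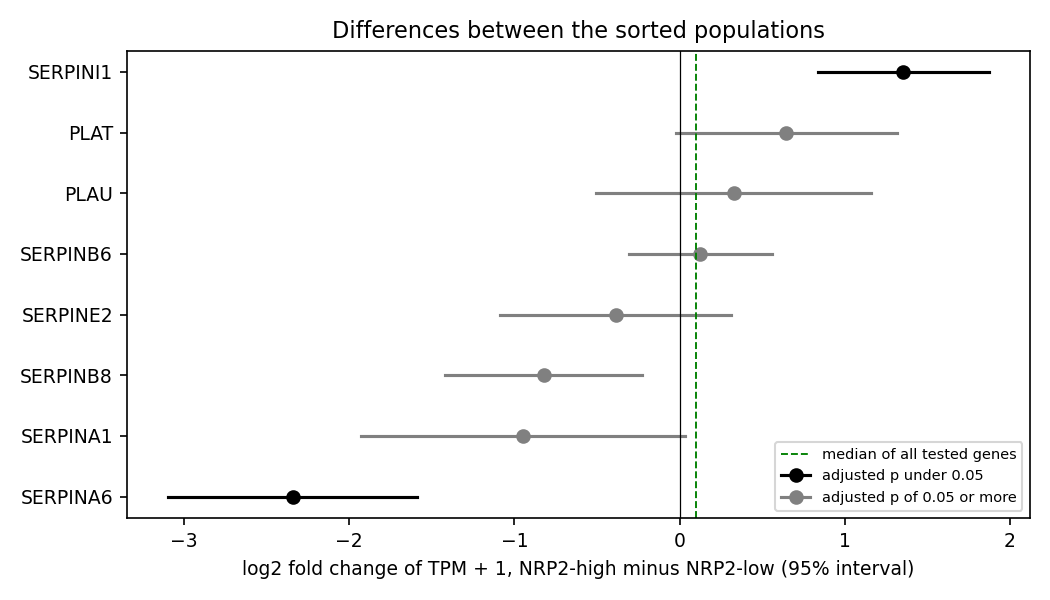
Log2 fold change of TPM + 1, NRP2-high minus NRP2-low, with its 95% interval for the 8 tested members, and the median of all tested genes (0.10) as a dashed line. SERPINI1 at 1.35 and SERPINA6 at -2.34, in black, passed the adjusted threshold, and the other 6, in grey, did not. SERPINA6 reached the filter through its NRP2-low libraries alone, so it had to differ.

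Urokinase was also set against its receptor. PLAUR, which encodes the urokinase receptor, had 42.2, 32.6 and 16.6 TPM in S38, S39 and S40, against 47.3, 37.6 and 30.2 TPM in S35, S36 and S37, with overlapping groups (log2 fold change -0.39, limma adjusted p = 0.895). The ratio of PLAU to PLAUR was 20.0, 17.9 and 21.6 in S38, S39 and S40 and 14.5, 11.5 and 9.98 in S35, S36 and S37. All 3 NRP2-high libraries lay above all NRP2-low libraries, with means of 19.8 ± 1.87 against 12.0 ± 2.32 (SD, n = 3 each), although neither gene passed the test alone. The difference of the log2 ratio was 0.72, and 0.59 to 0.87 with a library left out. With 3 libraries against 3 the smallest p of an exact two-sided permutation test is 0.1, so this ratio is a description. Ratios of PLAU to PLAT, PLAU to SERPINE2 and PLAT to SERPINI1 were also taken, and only the last had groups apart. Of single genes tested, 12.0% had groups that did not overlap.

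**Figure D3:**
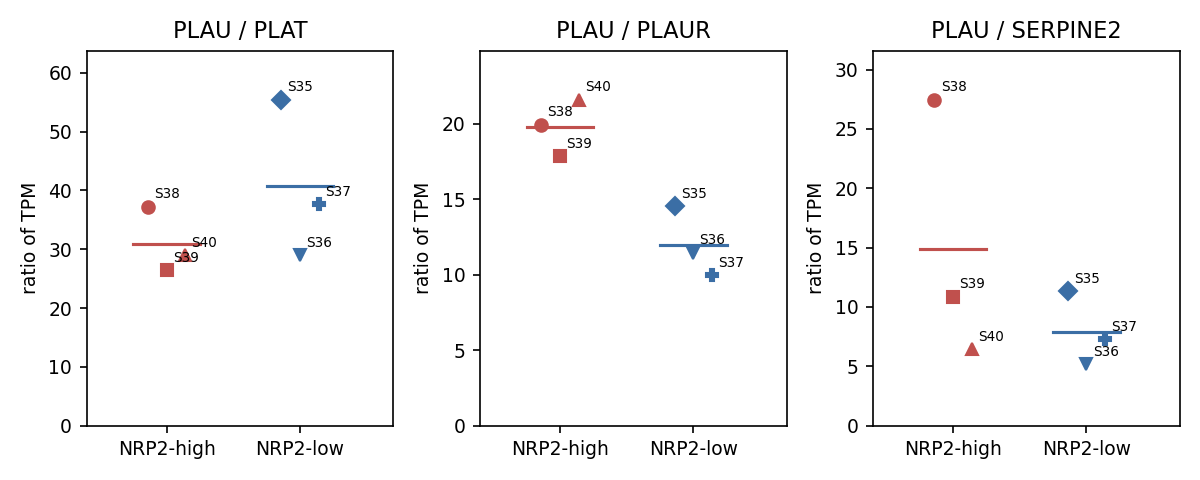
Ratio of the TPM of PLAU to that of PLAT, PLAUR and SERPINE2 in each library, NRP2-high in red and NRP2-low in blue, with a bar at each group mean. The groups are apart for PLAUR (17.9 to 21.6 against 9.98 to 14.5) and overlap for PLAT and for SERPINE2, where S38 stands apart at 27.5.

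SERPINA6 (chromosome 14, 94304248 to 94323319, minus strand) was detected in every NRP2-low library. It was at 7.39, 3.05 and 3.19 TPM in S35, S36 and S37 and at 0, 0.0983 and 0 TPM in S38, S39 and S40, with 1 read in S39. Over the groups, 173 reads of 71415752 stood against 1 read of 67201346, a ratio of 163 at equal depth with an exact 95% interval of 28.8 to 6467 that covers counting error only. The log2 fold change was -2.34 ± 0.33 (SE) with a 95% interval from -3.09 to -1.59 (limma adjusted p = 0.0173) with a pseudocount of 1 and -5.09 (adjusted p = 0.0244) with 0.1, and its size depends on that choice. The call stayed without S35 (limma adjusted p = 0.0372) and ended without any of the other 5 libraries (0.0548 to 0.0615) and without a filter (0.0734). Without S35 only S36 and S37 had a TPM of 1 or more, fewer than the 3 libraries of the filter. That fit still held SERPINA6 because genes were filtered on all 6 libraries. The call held when libraries were scaled by their median log ratio (limma adjusted p = 0.0175) and with TPM rescaled after removal of mitochondrially encoded genes (0.0124). SERPINA6 reached the filter through its NRP2-low libraries alone, so it had to differ, and these fits are a description.

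**Figure D4:**
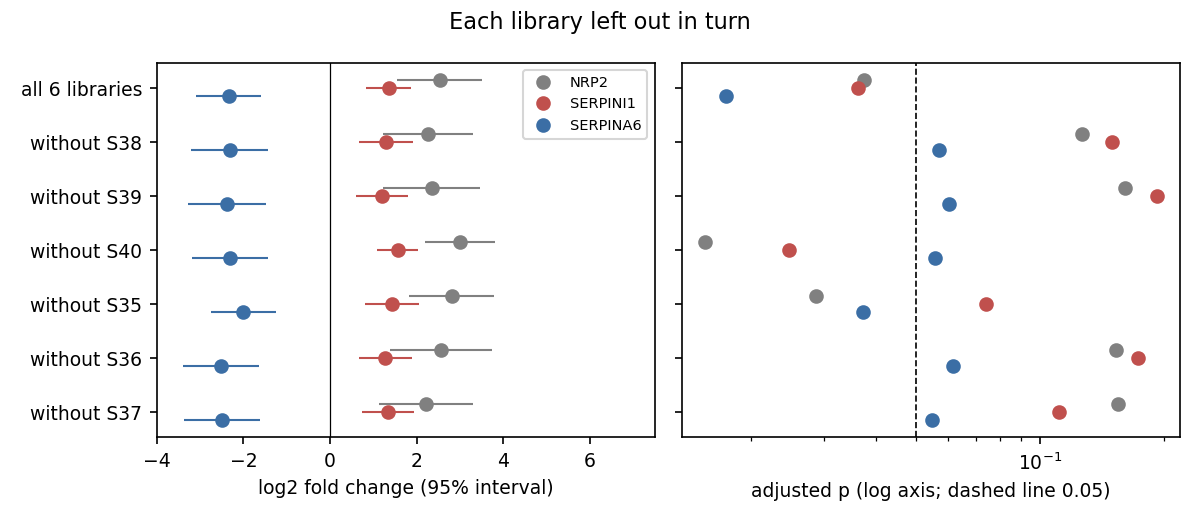
Log2 fold change with its 95% interval (left) and limma adjusted p on a log axis (right) for NRP2, SERPINI1 and SERPINA6 with all 6 libraries and with each left out in turn. The direction stays in every fit, with SERPINI1 between 1.21 and 1.56 and SERPINA6 between -2.52 and -1.999, while most of the adjusted p lie above 0.05. The direction of SERPINA6 was fixed by the filter, which it reached through its NRP2-low libraries alone.

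SERPINA1, the neighbour of SERPINA6 in the table at a distance of 53428 bases, encodes alpha-1-antitrypsin, the plasma inhibitor of neutrophil elastase. SERPINA1 (chromosome 14, 94376747 to 94390637, minus strand) had 1.19, 0.891 and 0.863 TPM in S38, S39 and S40, against 5.14, 3.91 and 0.841 TPM in S35, S36 and S37. S35 and S36 lay above all other libraries, whereas S37 was the lowest of the 6. The means were 0.983 ± 0.184 against 3.30 ± 2.21 TPM (SD, n = 3 each), a log2 fold change of -0.95 ± 0.43 (SE) with a 95% interval from -1.93 to 0.03 (limma adjusted p = 0.731). Without S37 it was -1.47 (limma adjusted p = 0.0852). SERPINA3, alpha-1-antichymotrypsin, in the same stretch of chromosome 14, had 2 reads in NRP2-high cells and 0 reads in NRP2-low cells. Since SERPINA6 and SERPINA1 are genes of the liver, hepatocyte markers were read beside them. Of 4 markers 2 were in the values used: ALB was at 0.0161 ± 0.0278 and 0 TPM, and FGB had 3.92 ± 2.02 TPM in NRP2-high cells against 0.0810 ± 0.0453 TPM in NRP2-low cells (SD, n = 3 each). Their sum ranged from 2.62 to 6.30 TPM in NRP2-high cells and from 0.0472 to 0.132 TPM in NRP2-low cells. It was FGB alone in every library but S40, so it shows 1 gene and not the marker list. The summed level of 4 fibroblast markers (of 5 listed) also did not overlap between the groups, at 0.618 to 2.97 TPM in NRP2-high and 0.0140 to 0.337 TPM in NRP2-low libraries. In NRP2-high cells most of it was LUM, at 1.43 ± 0.879 against 0.0190 ± 0.0329 TPM (SD, n = 3 each). DCN did not overlap either, at 0.0380 to 0.0567 TPM in NRP2-high and 0 to 0.0140 TPM in NRP2-low libraries. COL1A1 and PDGFRB of the fibroblast list overlapped between the groups. The sums of the leukocyte, endothelial, neuroendocrine and luminal prostate markers overlapped as well. The part of these marker lists in the results was not tested.

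Clade B serpins stay mostly inside the cell, and 2 of the 5 members of this group were tested. SERPINB8, an intracellular inhibitor of furin-like proteases (chromosome 18, 63969925 to 64019779, plus strand), had 12.2, 7.94 and 17.4 TPM in S38, S39 and S40, against 22.9, 22.8 and 20.0 TPM in S35, S36 and S37. Every NRP2-high library lay below every NRP2-low library, as for 3.14% of all genes tested. The means were 12.5 ± 4.73 against 21.9 ± 1.64 TPM (SD, n = 3 each), with a log2 fold change of -0.82 (SE 0.26, 95% interval -1.42 to -0.23). It did not pass the threshold over all genes (unadjusted p = 0.0127, limma adjusted p = 0.427). The log2 fold change was -0.56 without S39 and -1.08 without S40. HMSD, which overlaps SERPINB8 on the same strand, ranged from 7.69 to 10.4 TPM in NRP2-high cells and from 6.10 to 7.86 TPM in NRP2-low cells, and how shared reads were divided is not given in the sources used here. An antisense gene there, AC009802.1, was at 0.910 TPM at most.

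SERPINB6, an inhibitor of cathepsin G found in many cell types, varied least in NRP2-high cells among the tested members other than SERPINA6, which was at 0 in 2 of those libraries. SERPINB6 (chromosome 6, 2948159 to 2971661, minus strand) had 25.6, 28.1 and 24.5 TPM in S38, S39 and S40, against 27.0, 26.4 and 18.9 TPM in S35, S36 and S37. Apart from S37 all libraries lay between 24.5 and 28.1 TPM. The log2 fold change was 0.12 ± 0.19 (SE) with a 95% interval from -0.31 to 0.56 (limma adjusted p = 0.920), close to the median of all genes (0.10), and turned to -0.035 without S37. SERPINB9, the granzyme B inhibitor, had 1 read in each group, SERPINB5 (maspin, known as a tumour suppressor of breast and prostate epithelium) had 2 reads in NRP2-high cells and 0 in NRP2-low cells, and SERPINB7 had 11 and 8 reads.

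The other members were close to 0. SERPINC1 (antithrombin) had 3 reads in NRP2-high cells and 0 in NRP2-low cells, SERPIND1 (heparin cofactor) had 0 reads and 1 read, SERPINE3 had 1 read in each group, and SERPINI2 had 2 and 0 reads. All 11 members below the filter had 1 to 19 reads over the 6 libraries and at most 0.390 TPM in any library.

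The partners of this system showed no called gene, where 0.835% of all genes tested were called. With so low a share, 0 calls say little about the partners. Of 15 tested genes for the urokinase receptor and plasminogen receptors 0 passed the limma test, and 2 had an unadjusted p under 0.05, against 7.0% of all genes. Their median log2 fold change was 0.36, where the median of all genes tested was 0.10. The most abundant were ENO1, a glycolytic enzyme that also binds plasminogen at the cell surface, at 2459 ± 85.3 against 2133 ± 609 TPM, and the integrin ITGB1 at 863 ± 164 against 682 ± 176 TPM (SD, n = 3 each). For both the groups overlapped, and S37 was the lowest library.

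Among 7 tested clotting and protein C pathway genes 0 passed by limma, and 1 had an unadjusted p under 0.05, against 7.0% of all genes (median log2 fold change 0.32). PROCR, the endothelial protein C receptor, was at 335 ± 118 against 258 ± 46.7 TPM, and TFPI, the tissue factor pathway inhibitor, at 77.5 ± 35.8 against 60.0 ± 16.4 TPM (SD, n = 3 each). F3, tissue factor, was named after its values were seen. It had 28.4, 21.3 and 28.7 TPM in S38, S39 and S40, against 16.4, 16.9 and 12.2 TPM in S35, S36 and S37. Every NRP2-high library lay above every NRP2-low library, as for 8.83% of all genes tested. The log2 fold change of F3 was 0.75 and did not pass the threshold (limma adjusted p = 0.280).

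Of 7 tested serine protease inhibitors other than serpins 0 passed by limma and 0 had an unadjusted p under 0.05, against 7.0% of all genes (median log2 fold change 0.25). APP, whose longer forms carry a Kunitz inhibitor domain, was at 773 ± 106 against 750 ± 231 TPM, and PEBP1, also known as an inhibitor of RAF kinase signalling, at 437 ± 17.2 against 551 ± 107 TPM (SD, n = 3 each). Both had overlapping groups. From the list of membrane serine proteases, kallikreins and their partners 4 genes were tested, with no kallikrein among them. Of these 0 passed by limma and 3 had an unadjusted p under 0.05, against 7.0% of all genes (median log2 fold change 0.56). MET, the receptor of hepatocyte growth factor, was at 175 ± 29.1 against 120 ± 29.7 TPM (log2 fold change 0.56, limma adjusted p = 0.631), and the secreted protease PRSS23 at 76.4 ± 9.82 against 98.9 ± 21.1 TPM.

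**Figure D5:**
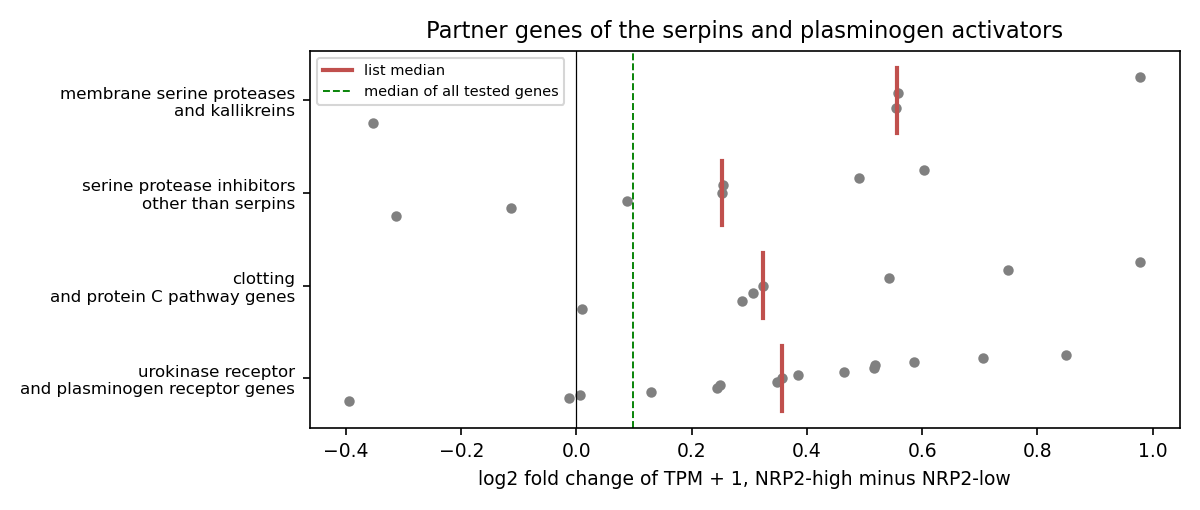
Log2 fold changes of the tested genes in the 4 partner lists, 1 grey point per gene, with the list median in red and the median of all tested genes (0.10) as a dashed line. The list medians lie between 0.25 and 0.56. None of the 33 points belongs to a called gene, where 0.835% of all genes tested were called.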

How the data were processed

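RNA-seq of 3 NRP2-high and 3 NRP2-low libraries was analysed. The authors deposited TPM values for 27958 genes, with gene lengths. The submitters' processing notes name featureCounts 1.5.2, DESeq2 1.20.0 and the build hg38 (GRCh38.p12). The sources used here give neither the roles of these tools nor the aligner or strand setting. Because TPM has a fixed total, a rise of abundant genes in a library lowers its other values.

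TPM was multiplied by length and expressed in units of the lowest value above 0 of each library, which gave whole numbers for 100% of values above 0 (tolerance 0.001). The resulting reads gave the depth. Libraries within a group differed by a chi-square per gene of 21.6 to 110.7, so none was counted as a repeat. Columns were tied to groups by the group word in their names. Nothing says that libraries came from separate sorts, so p-values cover only how these samples vary, which may be technical.

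The filter kept 15214 genes with 3 or more libraries at a TPM of 1 or more. The difference NRP2-high minus NRP2-low of log2(TPM + 1) was tested by limma 3.58.1 under R 4.3.3 (eBayes with a trend, two-sided, group as the only term), with Benjamini-Hochberg adjustment over all genes kept. Fold changes on this scale understate the change of low genes. The fit was tested on simulated data. Python 3.11.15 and pandas 2.3.3 were used.

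Members and lists were chosen with earlier results of these data known. In all, 1 member and 2 marker genes are not reported here. By rule, every member could be named, and from each partner list the called genes or otherwise the 2 with the highest mean TPM. Alternatives were a pseudocount of 0.1, no filter, scaling by the median log ratio, removal of mitochondrially encoded genes, no variance trend and each library left out. The fits with a library left out used the 15214 genes that passed the filter with all 6 libraries.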

Additional observations from a re-analysis of the deposited data

How the results depend on the processing

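The test called 127 genes, 53 of them higher and 74 lower. It called 74 without a filter and 43 to 97 with a library left out. The members called higher went from 1 to 0 without a filter and when libraries were scaled by their median log ratio, and the members called lower from 1 to 0 without a filter; both counts ran from 0 to 1 with a library left out. The scaling moved the median of all genes from 0.10 to -0.01. NRP2 kept its direction but lost the call without a filter (2.53, adjusted p = 0.175), without a variance trend (2.53, 0.0502), with a pseudocount of 0.1 (2.75, 0.0565) and without S36, S37, S38 or S39 (0.126 to 0.160), and its log2 fold change was 2.21 to 2.998 with a library left out (limma). Among members, SERPINB6 turned to -0.035 without S37 (-0.035 to 0.21). The other 7 tested members kept their sign in all 11 alternatives. SERPINA6, 1 of these 7 and the only member called lower, reached the filter through its NRP2-low libraries alone, so its sign was fixed in advance. The partner lists had 0 called genes in all 11, where 0.835% of all genes were called in the main fit. The difference of the PLAU to SERPINE2 log2 ratio was 0.71, and 0.15 to 1.19 with a library left out. The causes were not tested. No paired analysis was possible because the column names carry S numbers that match no replicate number of the labels. For the 11 members with 1 to 19 reads over all libraries, depth limits what could be seen.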
